A study of Mus musculus with 32 samples.

Results

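Liver RNA of KO mice, which lack medium-chain acyl-CoA dehydrogenase (MCAD), was compared with that of WT mice on the low-fat (LF) diet in the fed state. The members are 7 of the 32 mice of the series: KO LF fed replicates 1 to 4 and WT LF fed replicates 1, 3 and 4. They were chosen by genotype, diet and feeding state, and WT LF fed replicate 2 was left out because its dividing-cell transcripts stood far from those of the other mice. The whole study holds 8 groups of 4 mice, with both genotypes on the LF or the high-fat (HF) diet, fed or fasted. All mice were males on a C57BL/6J background, and the KO is an Acadm knockout, whose deleted part is not given in the sources used here. The LF diet was given for 6 weeks, and the fed mice stayed on it during the last 16 h, when the fasted groups had no food. The labels give ages, with no unit, of 10.5, 10.5, 10 and 16 for KO replicates 1 to 4 and of 9, 12 and 11 for WT replicates 1, 3 and 4.

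MCAD catalyses the first step of mitochondrial beta-oxidation for medium-chain acyl-CoA esters, and it overlaps in chain length with the short-, long- and very-long-chain dehydrogenases. In the fed liver on a carbohydrate-rich diet, fatty acids are made rather than burned: glycolysis feeds acetyl-CoA into lipogenesis, which uses NADPH, and desaturases and elongases finish the products. The same cells secrete most plasma proteins, which fold in the endoplasmic reticulum (ER) with the help of chaperones that are induced together by the unfolded protein response.

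Levels are given as CPM (read counts scaled to a common library size), scaled by TMM over all 32 mice, and differences as log2 fold changes of KO over WT from the fit of the 7 mice, with standard error (SE) and 95% interval. Total counts were 2292624 to 3171150 in the 4 KO mice and 2937139 to 4048376 in the 3 WT mice. Hepatocyte markers summed to 45992 to 51094 CPM in KO and 47496 to 52374 CPM in WT, and the groups overlapped. Dividing-cell transcripts summed to 59.2 to 72.9 CPM in KO, to 75.5 to 76.1 CPM in the WT mice used, and to 934 CPM in WT replicate 2, and bile duct and gallbladder markers to 65.1 to 84.5 CPM in KO and 88.3 to 97.8 CPM in WT. The part of these marker differences in the results was not tested. In bulk tissue, fewer cells of a type and less RNA per cell cannot be told apart. All WT mice were sequenced on lane 8, as were KO replicates 3 and 4, whereas KO replicates 1 and 2 were on lane 7. Hence results that changed most without the lane 7 mice are also given for lane 8 alone (2 KO against 3 WT mice).

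Of the 20076 genes in the table, 10366 were expressed highly enough to be tested, and 2 of them (0.0193%) passed an adjusted p of 0.05: Acadm and B3galt1. Without adjustment, 275 genes (2.65%) were higher in KO at p below 0.05 and 307 (2.96%) were lower, together 582 (5.61%). At p below 0.01, 50 genes (0.482%) were higher and 73 (0.704%) were lower, together 123 (1.19%). Every KO mouse lay above every WT mouse for 316 genes (3.05%) and below for 392 (3.78%). Counting any difference, 50.8% of the genes were higher in KO and 49.2% lower, and the median log2 difference over all of them was 0.01. The counts below are to be read against these shares.

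Acadm, which encodes MCAD (GRCm38, chr3:153922357-153944632, minus strand), fell in KO. Its level was 11.3, 21.4, 13.6 and 15.3 CPM in KO replicates 1 to 4 and 232, 192 and 193 CPM in WT replicates 1, 3 and 4. The groups were far apart, and every KO mouse kept some reads. Because the libraries read only the 3′ end of transcripts and the place of the deleted part is not given in the sources used here, these residual reads do not show a functional transcript. The difference was -3.73 (SE 0.18, 95% interval -4.11 to -3.36, edgeR adjusted p = 2.03e-11), which is 0.0751 of the WT level. It kept a log2 value between -3.92 and -3.61 in all 19 alternative fits. The WT level itself was lower here, 192 to 232 CPM, than in the other WT groups, where it ran from 296 to 345 CPM on the HF diet in the fed state and from 579 to 739 CPM in LF fasted mice. The omitted WT replicate 2 had 306 CPM, inside that HF fed range.

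B3galt1 (chr2:67565871-68122689, plus strand), a galactosyltransferase that builds glycan chains, was the other gene that fell. Its level was 4.86, 3.78, 6.28 and 11.3 CPM in KO replicates 1 to 4 and 35.6, 21.1 and 31.3 CPM in WT replicates 1, 3 and 4. No KO mouse reached the lowest WT mouse used, but the omitted WT replicate 2 had 9.67 CPM, inside the KO range. The difference was -2.12 (SE 0.33, 95% interval -2.81 to -1.44, edgeR adjusted p = 0.0107). The call was lost with WT replicate 2 (adjusted p = 0.839), with lane as a term (adjusted p = 0.404), on lane 8 alone (adjusted p = 0.187, log2 -1.72), and without KO replicate 1 (0.0719), WT replicate 1 (0.255) or WT replicate 4 (0.178). Over all alternatives the adjusted p ran from 4.80e-08 to 1, and every log2 value lay between -2.53 and -1.72. In the other conditions B3galt1 was not lower in KO throughout: its medians were 17.3 CPM in KO and 9.18 CPM in WT LF fasted mice, 19.2 and 14.2 CPM in HF fasted mice, and 8.78 and 13.4 CPM in HF fed mice. The KO median of HF fasted mice is of 3 mice, without KO HF fasted replicate 4. The locus overlaps other genes on both strands, and whether counting used the strand is not stated, so that its reads may be shared.

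**Figure D1:**
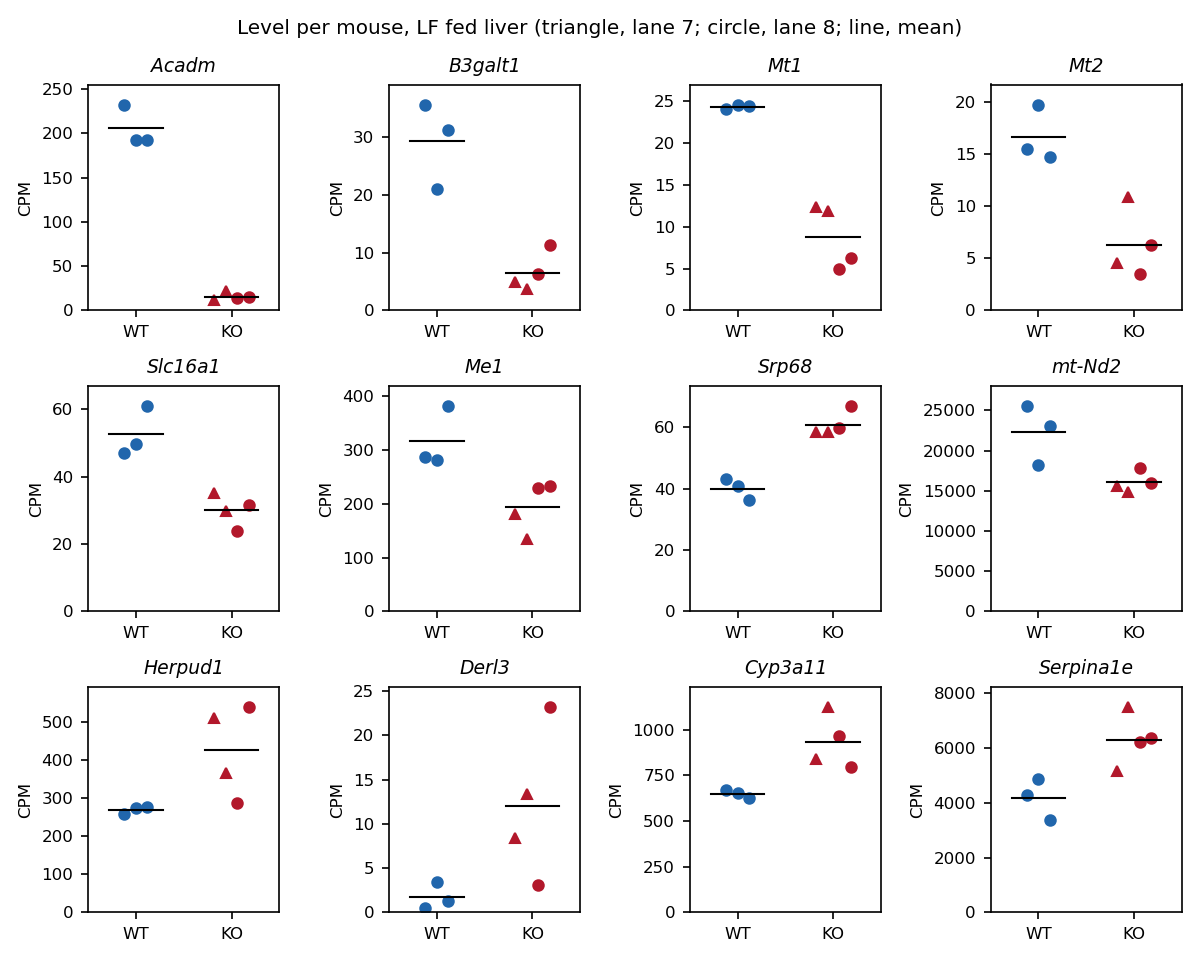
Level in CPM (y axis, from 0) of 12 transcripts in the 3 WT (blue) and 4 KO (red) LF fed mice, with triangles for lane 7, circles for lane 8 and a line at the mean of each group. Acadm and B3galt1 passed adjustment; the other 10 transcripts did not pass, and Derl3 is the one whose groups overlap.

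The metallothionein transcripts Mt1 and Mt2, which encode small proteins that bind zinc and copper, were both lower in every KO mouse, and Mt1 had the smallest adjusted p after the 2 called genes. Mt1 was at 12.3, 11.8, 4.89 and 6.27 CPM in KO replicates 1 to 4 and at 24, 24.5 and 24.4 CPM in WT replicates 1, 3 and 4. The 3 WT mice were close to one another and above every KO mouse, and KO replicates 3 and 4, which shared lane 8 with the WT, were the lowest. The difference of Mt1 was -1.45 (SE 0.31, 95% interval -2.11 to -0.80, edgeR adjusted p = 0.499), and it was -2.10 on lane 8 alone, where Mt1 was called beside Acadm. Mt2 was at 4.53, 10.9, 3.49 and 6.27 CPM in KO and at 15.5, 19.7 and 14.7 CPM in WT, again with no overlap, and differed by -1.40 (SE 0.37, edgeR adjusted p = 0.598). The omitted WT replicate 2 held 141 CPM of Mt1 and 96.4 CPM of Mt2, far above both groups. These levels are near the bottom of the range of the series, since Mt1 in LF fasted mice was between 281 and 1199 CPM in KO and between 365 and 1337 CPM in WT. The other 6 measured zinc transporters of the list lay between -0.14 and 0.16, so that the list as a whole had a median of -0.09. The promoter of Mt1 is shown because metallothioneins carry metal response elements. RefSeq (GRCm38.p6) places its 300-base window at chr8:94178839-94179138 on the plus strand, with 3 matches to TGCACNC or TGCGCNC, searched on both strands, in capitals.
Mt1: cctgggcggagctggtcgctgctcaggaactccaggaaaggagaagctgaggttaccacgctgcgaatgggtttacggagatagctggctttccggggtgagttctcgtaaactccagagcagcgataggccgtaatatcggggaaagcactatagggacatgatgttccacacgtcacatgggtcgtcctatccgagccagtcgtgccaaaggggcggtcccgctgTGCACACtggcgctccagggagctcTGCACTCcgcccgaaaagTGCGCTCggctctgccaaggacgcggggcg
Mt2 has 4 such matches in its window, whereas at least 1 is held by 28.2% of the promoters of all 27025 genes and by 40.3% of those of the genes tested.

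Fatty acid oxidation itself showed little. The 10 other acyl-CoA dehydrogenases, which share the first step with MCAD, had a median of 0.05, with 6 higher, 4 lower and 1 at p below 0.05. Acads, the short-chain enzyme, was at 259, 249, 269 and 253 CPM in KO and 313, 255 and 312 CPM in WT, with overlapping groups and a difference of -0.17 (95% interval -0.42 to 0.07). Acadl, the long-chain enzyme, was at 132, 174, 133 and 119 CPM in KO and 145, 136 and 153 CPM in WT, a difference of -0.04 (95% interval -0.33 to 0.26). Acadvl, the very-long-chain enzyme, was at 202, 233, 199 and 225 CPM in KO and 192, 186 and 173 CPM in WT. Each KO mouse was above each WT mouse for Acadvl, by 0.24 (95% interval -0.01 to 0.49, edgeR adjusted p = 0.902). Acadsb, which acts on short branched chains, differed by 0.29 (edgeR adjusted p = 0.871) with 126, 137, 132 and 159 CPM in KO and 115, 111 and 118 CPM in WT, again without overlap. On lane 8 alone the median of the list was 0.19. The 11 genes of the later steps of mitochondrial beta-oxidation had a median of 0.02 and none at p below 0.05, with all 11 intervals within 2-fold. In the carnitine shuttle, Cpt1a, the entry step, was at 148, 191, 158 and 180 CPM in KO and 188, 161 and 159 CPM in WT, a difference of 0.01 (95% interval -0.26 to 0.29).

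Downstream of oxidation, all 6 genes of ketone body synthesis and export lay at or below 0, with a median of -0.15. Slc16a1, a carrier that moves ketone bodies and lactate across the membrane, was at 35.0, 29.8, 23.7 and 31.6 CPM in KO and at 47.1, 49.6 and 60.9 CPM in WT. Its groups did not overlap, and it was lower by 0.79 on the log2 scale (log2 -0.79, SE 0.19, edgeR adjusted p = 0.575), with a value of -0.91 on lane 8 alone. Peroxisomal beta-oxidation, which shortens very long chains, had a median of -0.14 with 4 genes higher and 11 lower, of which 0 and 4 were at p below 0.05. That median was -0.02 on lane 8 alone.

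Lipid synthesis leaned lower in KO, with a wide spread between mice. In de novo lipogenesis, 12 of 14 genes were lower and 2 higher, with a median of -0.70, and 3 of the lower genes were at p below 0.05. Me1, malic enzyme, a source of NADPH for the pathway, was at 181, 134, 230 and 233 CPM in KO and at 287, 282 and 382 CPM in WT. Its groups did not overlap, and it differed by -0.69 (SE 0.17, edgeR adjusted p = 0.598), or -0.45 on lane 8 alone. Elovl6, which elongates palmitate, was at 111, 149, 212 and 223 CPM in KO and at 232, 366 and 356 CPM in WT, also without overlap (log2 -0.86, SE 0.26, edgeR adjusted p = 0.787, -0.54 on lane 8 alone). Fasn, the fatty acid synthase, shows how much single mice differed: it was at 984, 642, 1500 and 1864 CPM in KO and at 854, 2879 and 2518 CPM in WT. WT replicate 1 lay inside the KO range for Fasn, and its difference was -0.73 with an interval from -2.15 to 0.70, or -0.30 on lane 8 alone. Scd1, the delta-9 desaturase, was at 6894, 2191, 9844 and 8263 CPM in KO and at 12484, 10604 and 16076 CPM in WT, without overlap but with a difference of -0.93 whose interval ran from -2.24 to 0.38, or -0.52 on lane 8 alone. Srebf1, a transcription factor that drives lipogenesis, was among the 2 genes that were higher (log2 0.29, 95% interval -0.45 to 1.04).

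Within KO, the level of the lipogenesis list also differed between the lanes. The mean log2 level of the list, set against the mean of the 7 mice, was -0.48 and -0.80 in KO replicates 1 and 2 on lane 7 and 0.04 and 0.20 in KO replicates 3 and 4 on lane 8. In the WT mice it was -0.21, 0.65 and 0.60. Thus the KO mice on lane 8 lay between WT replicate 1 and the other WT mice. Within KO the median of lane 8 against lane 7 was 0.74, and on lane 8 alone the KO to WT median became -0.34, with 3 genes higher and 11 lower. Genotype, lane and single mice cannot be told apart for the part carried by the lane 7 mice. Lane was also fitted over 30 mice of all 8 groups, without WT LF fed replicate 2 and KO HF fasted replicate 4. There the median of lane 8 against lane 7 was 0.08, with 8 genes higher and 6 lower. In the model of 8 groups with lane, the KO to WT median was -0.63. The omitted WT replicate 2 had the lowest mean of all, at -1.29.

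The neighbouring lipid lists leaned the same way to a smaller degree. Desaturases and elongases, which share Scd1 and Elovl6 with the previous list, had 11 of 14 genes lower and a median of -0.30, with 5 lower and 0 higher at p below 0.05, and -0.12 on lane 8 alone. Hsd17b12, the ketoreductase of the elongation cycle, was at 111, 123, 126 and 138 CPM in KO and at 176, 168 and 144 CPM in WT, without overlap (log2 -0.37, SE 0.13, edgeR adjusted p = 0.787). Fatty acid uptake and activation had 12 of 14 genes lower, a median of -0.27, and 5 lower and 0 higher at p below 0.05. Acsl4, an acyl-CoA synthetase that prefers arachidonic acid, was at 115, 98.2, 182 and 162 CPM in KO and at 202, 215 and 229 CPM in WT, with a difference of -0.61 (SE 0.17, edgeR adjusted p = 0.740), or -0.32 on lane 8 alone. Acsl1, the main acyl-CoA synthetase of liver, differed by -0.32 (edgeR adjusted p = 0.805) and Fabp1, the fatty acid-binding protein, by -0.29 (edgeR adjusted p = 0.787), both without overlap. On lane 8 alone these values were -0.17 for Acsl1 and -0.19 for Fabp1. The median of the uptake list was -0.18 on lane 8 alone. Lipid droplet and lipolysis genes had a median of -0.22 with 9 of 14 lower and of -0.10 on lane 8 alone, and triglyceride synthesis a median of -0.14 with 10 of 11 lower and 0 at p below 0.05.

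In cholesterol synthesis and LDL uptake, 22 of 23 genes were lower in KO, but the sizes were small and the count did not hold on lane 8. The median was -0.18 and 4 genes were lower at p below 0.05. On lane 8 alone the median of the list was 0.03, with 13 genes higher and 10 lower. Lane 8 was above lane 7 by a median of 0.52 within KO and of 0.20 across the 30 mice. Lane and single mice cannot be told apart here, since the median was -0.03 without WT replicate 3, -0.43 without WT replicate 1, and -0.10 in the model of 8 groups with lane. With age as a term the median was -0.33, and the part of age was not tested. The list also varied from mouse to mouse within WT, since its mean was -0.27 in WT replicate 1 and 0.48 in WT replicate 3.

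**Figure D2:**
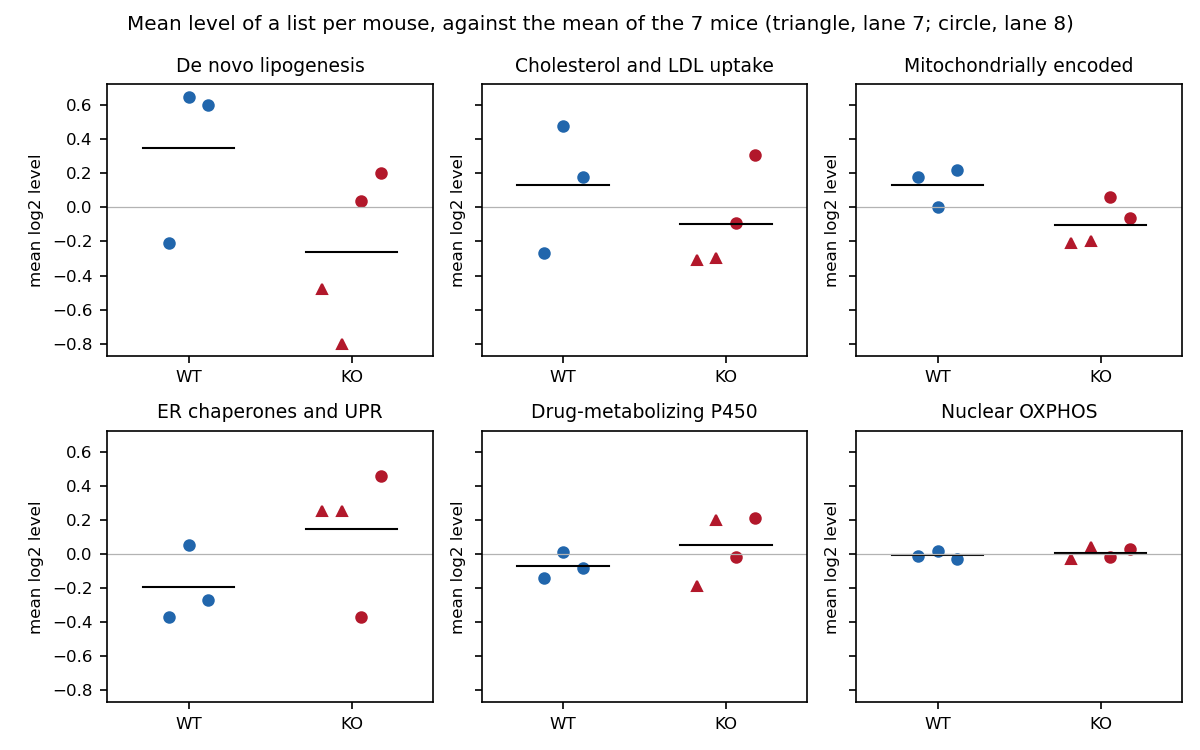
Mean log2 level of 6 gene lists per mouse (y axis, against the mean of the 7 mice, pseudocount 0.5 CPM), with WT in blue, KO in red, triangles for lane 7, circles for lane 8 and a line at each group's mean. For lipogenesis and cholesterol the lane 7 KO mice are the lowest KO mice, for the ER list KO replicate 3 is as low as WT replicate 1, and nuclear OXPHOS stays between -0.03 and 0.04 in all 7.

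Carbohydrate genes divided. Pklr, the liver pyruvate kinase, differed by -0.53 (SE 0.16, edgeR adjusted p = 0.787), while WT replicate 1 at 143 CPM fell among the KO mice at 122 to 152 CPM. Pgk1 was higher by 0.94 (edgeR adjusted p = 0.871) at only 3.26 to 12.6 CPM. The glycolysis list as a whole had a median of -0.04, with 1 gene higher and 3 lower at p below 0.05. NADPH sources had a median of -0.12, with 9 of 13 genes lower and 3 of them, Me1, Pgd and Tkt of the pentose phosphate pathway, at p below 0.05. Gluconeogenesis had a median of 0.10, and the urea cycle a median of 0.00.

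Mitochondrial transcripts split by genome. Of the 9 mitochondrially encoded transcripts tested, 8 were lower in KO, the median was -0.26, and 5 were lower at p below 0.05. mt-Nd2, a subunit of complex I, was at 15567, 14865, 17790 and 15997 CPM in KO and at 25547, 18274 and 23052 CPM in WT. The lowest WT mouse was just above the highest KO mouse, and mt-Nd2 differed by -0.46 (SE 0.11, 95% interval -0.68 to -0.24, edgeR adjusted p = 0.527). mt-Nd5 was at 1322, 1297, 1771 and 1701 CPM in KO and at 2091, 1926 and 2115 CPM in WT, a difference of -0.41 (edgeR adjusted p = 0.740) that was -0.23 on lane 8 alone. mt-Co1, a subunit of complex IV, did not follow, with 1117, 1133, 1359 and 1309 CPM in KO and 1248, 1210 and 1243 CPM in WT (log2 0.01, 95% interval -0.21 to 0.23). On lane 8 alone the median of the mitochondrial list was -0.15, with 1 transcript lower at p below 0.05. With WT replicate 2 the median was -0.10, with 0 at p below 0.05. By contrast the 75 nuclear-encoded genes of oxidative phosphorylation had a median of 0.03, with 42 higher and 33 lower, 3 and 2 of them at p below 0.05. Sdha of complex II was at 471, 467, 462 and 485 CPM in KO and 472, 482 and 488 CPM in WT, which overlap (log2 -0.01, 95% interval -0.23 to 0.21). The 19 genes of the TCA cycle had a median of 0.01, 0 at p below 0.05, and all 19 intervals within 2-fold.

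On the side of higher levels in KO, the chaperones and regulators of the ER came first. Of 29 genes, 23 were higher and 6 lower, the median was 0.34, and 6 were higher and 1 lower at p below 0.05. Many promoters of this family hold the ER stress response element (ERSE), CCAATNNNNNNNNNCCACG, which was searched on both strands in the RefSeq windows of GRCm38.p6 that run from 250 bases before to 50 after the start. It was found in 37 of 27025 genes (0.137%) and in 9 of the 23 members of the list with a window (39.1%). The sites of 6 members are shown because their genes run from a difference near 0 in Canx to the largest of the list in Derl3, with the fixed letters in capitals, and each is written in the direction that reads CCAAT first.
Derl3: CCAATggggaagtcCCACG
Creld2: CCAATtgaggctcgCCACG
Syvn1: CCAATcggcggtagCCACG
Hspa5: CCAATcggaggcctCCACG
Calr: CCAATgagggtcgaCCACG
Canx: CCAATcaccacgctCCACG
They lie at chr10:75893242-75893260 for Derl3, chr15:88819520-88819538 for Creld2, chr19:6046532-6046550 for Syvn1, chr2:34772025-34772043 for Hspa5, chr8:84847075-84847093 for Calr and chr11:50325800-50325818 for Canx. The site is on the strand opposite to the gene in Derl3, Creld2 and Calr. The 9 members with the motif were all higher in KO, with a median of 0.31, and 10 of the 14 members without it were higher, with a median of 0.34. Members with the motif ran from 0.02 in Canx to 2.86 in Derl3. Whether the motif went with the size of the difference was not tested.

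Herpud1, which recruits ER proteins for degradation, was at 509, 366, 287 and 539 CPM in KO and at 258, 275 and 277 CPM in WT. Every KO mouse was above every WT mouse, KO replicate 3 only just, and Herpud1 differed by 0.67 (SE 0.18, 95% interval 0.28 to 1.07, edgeR adjusted p = 0.787). Derl3, a channel component of the same degradation route, was at 8.42, 13.4, 3.14 and 23.2 CPM in KO and at 0.490, 3.40 and 1.30 CPM in WT. KO replicate 3 overlapped the WT, and the difference of Derl3 was 2.86 (SE 0.69, 95% interval 1.39 to 4.34, edgeR adjusted p = 0.598). Hspa5 (BiP), the main ER chaperone, was at 4084, 3725, 1779 and 4967 CPM in KO and at 1835, 3413 and 2660 CPM in WT. KO replicate 3 was the lowest of all 7 mice for Hspa5, and the interval ran from -0.57 to 1.53. Syvn1, the ubiquitin ligase of the route, was also lowest in KO replicate 3, with 302, 354, 125 and 436 CPM in KO and 147, 215 and 156 CPM in WT (log2 0.84, edgeR adjusted p = 0.924). Creld2 was at 51.8, 56.7, 11.9 and 94.9 CPM in KO and at 15.7, 34.3 and 22.8 CPM in WT (log2 1.18, edgeR adjusted p = 0.934). Atf4, a transcription factor of the translation-control branch, went the other way, with 163, 138, 119 and 170 CPM in KO, 211, 212 and 186 CPM in WT and no overlap (log2 -0.45, SE 0.14, edgeR adjusted p = 0.787).

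Single KO mice moved the ER list. The mean log2 level of the list was 0.25, 0.25, -0.37 and 0.46 in KO replicates 1 to 4 and -0.37, 0.05 and -0.27 in WT replicates 1, 3 and 4, so that KO replicate 3 was level with the lowest WT mouse. The KO to WT median of the list was 0.42 without KO replicate 3 and 0.18 without KO replicate 4. Without KO replicate 3, 7 genes were called in place of 2, namely Derl3, Ero1lb, Herpud1 and Syvn1 of the ER, together with Sdr42e1, Acadm and B3galt1. On lane 8 alone the median of the list was 0.26, with 22 genes higher and 7 lower. Within KO, lane 8 differed from lane 7 by a median of -0.10, and lane and single mice cannot be told apart there. Across 30 mice of all 8 groups, the median of lane 8 against lane 7 was 0.11 for the ER list and 0.08 for lipogenesis. In the other conditions the KO to WT median of the ER list was -0.19 in LF fasted, -0.16 in HF fed and 0.18 in HF fasted mice.

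Related secretory and liver-protein lists leaned higher to a lesser degree. Cytosolic heat shock genes had a median of 0.23, with 9 of 12 higher, 1 higher and 1 lower at p below 0.05, but the mean of the list in KO ran from -0.38 to 0.40. Hsp90ab1, the member with the highest level, was lower in KO without overlap (log2 -0.33, edgeR adjusted p = 0.805, -0.50 on lane 8 alone). N-glycosylation had a median of 0.17 with 3 higher and 1 lower at p below 0.05, and on lane 8 alone it was 0.07 with 1 higher and 3 lower. Rpn2, a subunit of the transferase that attaches glycans, was at 143, 199, 140 and 195 CPM in KO and at 119, 137 and 122 CPM in WT, a difference of 0.45 (edgeR adjusted p = 0.787) without overlap. Ganab of the same list was lower in KO, also without overlap (log2 -0.36, edgeR adjusted p = 0.787, -0.47 on lane 8 alone). Srp68, part of the particle that brings secretory messages to the ER, was at 58.6, 58.4, 59.7 and 67.0 CPM in KO and at 43.2, 40.8 and 36.2 CPM in WT, a difference of 0.62 (SE 0.16, edgeR adjusted p = 0.598). The list of Srp68, translocation and signal peptide machinery, had a median of 0.09 with 13 of 21 higher, and of 0.03 on lane 8 alone. Sec61a1, the member of that list with the highest level, differed by -0.23 with overlap (edgeR adjusted p = 0.902). Among acute-phase proteins 14 of 18 were higher, with a median of 0.22 and 2 higher at p below 0.05. Hpx, hemopexin, which binds free heme, was at 1637, 1697, 1588 and 1984 CPM in KO and at 1422, 1430 and 1294 CPM in WT (log2 0.34, edgeR adjusted p = 0.787). With WT replicate 2, at 3058 CPM, the sign of Hpx turned to -0.07.

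Among detoxification lists, the P450 and NRF2 lists leaned higher and the others did not. Glutathione transferases had a median of 0.00 with 9 of 17 higher, glucuronosyl- and sulfotransferases a median of 0.03 with 8 of 14 higher, and aldehyde and alcohol dehydrogenases a median of 0.05 with 0 higher and 3 lower at p below 0.05. Of 25 drug-metabolizing cytochromes P450, 19 were higher and 6 lower, with a median of 0.19, and 4 were higher and 0 lower at p below 0.05. Cyp3a11, a broad-range P450 induced by bile acids and drugs, was at 839, 1125, 966 and 794 CPM in KO and at 669, 654 and 629 CPM in WT. The groups did not overlap, and the difference was 0.53 (SE 0.12, 95% interval 0.28 to 0.79, edgeR adjusted p = 0.527), or 0.44 on lane 8 alone. With WT replicate 2, at 2204 CPM, Cyp3a11 turned to -0.17. Cyp2d26 was at 416, 486, 449 and 468 CPM in KO and at 366, 339 and 346 CPM in WT (log2 0.39, SE 0.11, edgeR adjusted p = 0.740), and Cyp2c23 differed by 0.38 (edgeR adjusted p = 0.787), both without overlap. The P450 median was 0.13 on lane 8 alone and 0.36 with WT replicate 2. Glutathione and NRF2 targets had a median of 0.12 with 12 of 16 higher, and 4 higher and 1 lower at p below 0.05. Gsta4, a transferase that conjugates lipid aldehydes, was at 27.5, 34.0, 29.7 and 30.4 CPM in KO and at 14.5, 22.8 and 14.7 CPM in WT (log2 0.83, SE 0.24, edgeR adjusted p = 0.740). Srxn1, which restores oxidized peroxiredoxins, lay in the other direction with 46.0, 54.2, 54.8 and 62.7 CPM in KO and 67.2, 64.5 and 92.2 CPM in WT (log2 -0.44, edgeR adjusted p = 0.805). The omitted WT replicate 2 held 49.9 CPM of Gsta4 and 541 CPM of Srxn1, above both groups. On lane 8 alone the median of the NRF2 list was 0.09, with 1 higher and 0 lower at p below 0.05. With WT replicate 2 that median was -0.02.

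**Figure D3:**
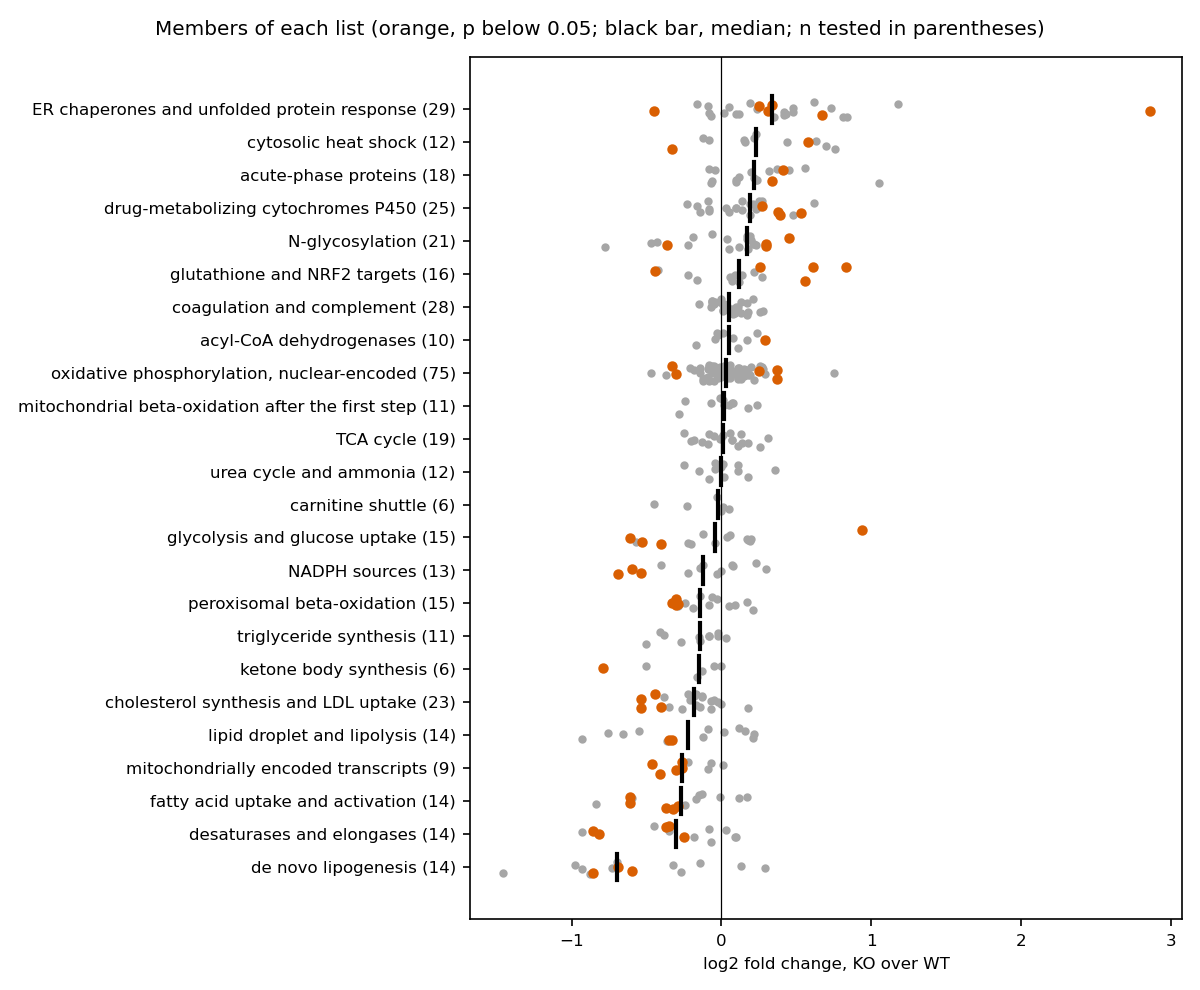
Log2 fold change of KO over WT (x axis) for every tested member of 24 gene lists, ordered by median (black bar), with members at unadjusted p below 0.05 in orange and the others in grey, and the number tested in parentheses. De novo lipogenesis lies lowest at -0.70 and the ER list highest at 0.34, whereas acyl-CoA dehydrogenases, TCA cycle and nuclear oxidative phosphorylation lie within 0.05 of 0.

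The 2 sets of cofactor genes that the study defined, reactions that use coenzyme A and reactions that use NAD(P)(H), had medians near 0. The study applied these sets to the present mice among others, so that they are not independent evidence. It reported them overrepresented among both higher and lower genes over several conditions, at another threshold. A median near 0 does not bear on that, since higher and lower members cancel in it. Of 148 coenzyme A genes tested, 74 were higher and 74 lower, with a median of 0.00, and 4 and 7 were at p below 0.05. Of 260 NAD(P)(H) genes, 134 were higher and 126 lower, with a median of 0.01, and 7 and 17 were at p below 0.05, whereas 10 and 7 were on lane 8 alone. Over all genes tested in the 7 mice, 2.65% were higher and 2.96% lower at that p. In coenzyme A synthesis and breakdown, Nudt19, a peroxisomal hydrolase of coenzyme A, was at 68.0, 64.2, 53.7 and 52.9 CPM in KO and at 48.1, 41.1 and 51.2 CPM in WT (log2 0.37, edgeR adjusted p = 0.871), and it was the one member of 16 at p below 0.05. In NAD synthesis and consumption that one member was Tdo2, the first enzyme from tryptophan to NAD, with 1608, 1620, 1682 and 1702 CPM in KO and 1469, 1462 and 1424 CPM in WT (log2 0.20, edgeR adjusted p = 0.889).

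Genes with small p that belong to none of these pathways complete the list. Serpina1e, an alpha-1-antitrypsin of the mouse family whose members are alike in sequence, was at 5154, 7504, 6212 and 6375 CPM in KO and at 4292, 4877 and 3373 CPM in WT (log2 0.61, SE 0.13, edgeR adjusted p = 0.527). Reads may be split among the copies of that family. Ang, angiogenin, differed by 0.51 (edgeR adjusted p = 0.740) and Rab5b, of early endosomes, by 0.83 (edgeR adjusted p = 0.740), both without overlap. Dusp6, a phosphatase of ERK, was at 53.1, 47.9, 56.5 and 93.0 CPM in KO and at 99.8, 108 and 154 CPM in WT (log2 -0.92, SE 0.21, edgeR adjusted p = 0.575). BC025446 differed by -0.77 (edgeR adjusted p = 0.575) and Zc3h13, part of the complex that methylates adenosine in RNA, by -1.02 (edgeR adjusted p = 0.575), without overlap. None of these genes passed adjustment.

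How large a difference the 7 mice could hide depended on the level of the gene. Over all tested genes, 6790 (65.5%) had a 95% interval that lay wholly within 2-fold in either direction, and 31.4% lay within 1.5-fold. Above 1000 CPM the median interval reached 1.17-fold to each side of the estimate, and 94.3% of 106 genes lay within 2-fold. From 100 to 1000 CPM it reached 1.21-fold and 96.0% of 1289 genes lay within 2-fold, and from 10 to 100 CPM it reached 1.41-fold and 85.4% of 5971 genes did. Below 10 CPM it reached 2.05-fold, and 11.8% of 3000 genes lay within 2-fold. For most such genes a 2-fold difference in at least 1 direction was thus not excluded at this depth. For the short-, long- and very-long-chain dehydrogenases the far ends of the intervals, as folds of WT, were 0.749 and 1.05 for Acads, 0.793 and 1.2 for Acadl and 0.992 and 1.41 for Acadvl. Hence an increase of Acads, Acadl or Acadvl to double the WT level lies outside the interval.

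The lists differed in the same respect. The largest fold still inside the interval, as a median over members, was 1.27 for mitochondrial beta-oxidation after the first step, 1.29 for nuclear oxidative phosphorylation, 1.35 for the TCA cycle and 1.36 for the acyl-CoA dehydrogenases. All 10 of those dehydrogenases had intervals within 2-fold. It was 1.71 for cholesterol synthesis and 1.97 for the ER list, where 15 of 29 members lay within 2-fold. For de novo lipogenesis it was 2.63, and 3 of 14 members lay within 2-fold. The intervals are pointwise, gene by gene, and are for the difference between the groups, with an error taken from the variation between these mice. They come from the fit without lane. With lane as a term the share of genes within 2-fold was 56.2%, against 65.5% without it.

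**Figure D4:**
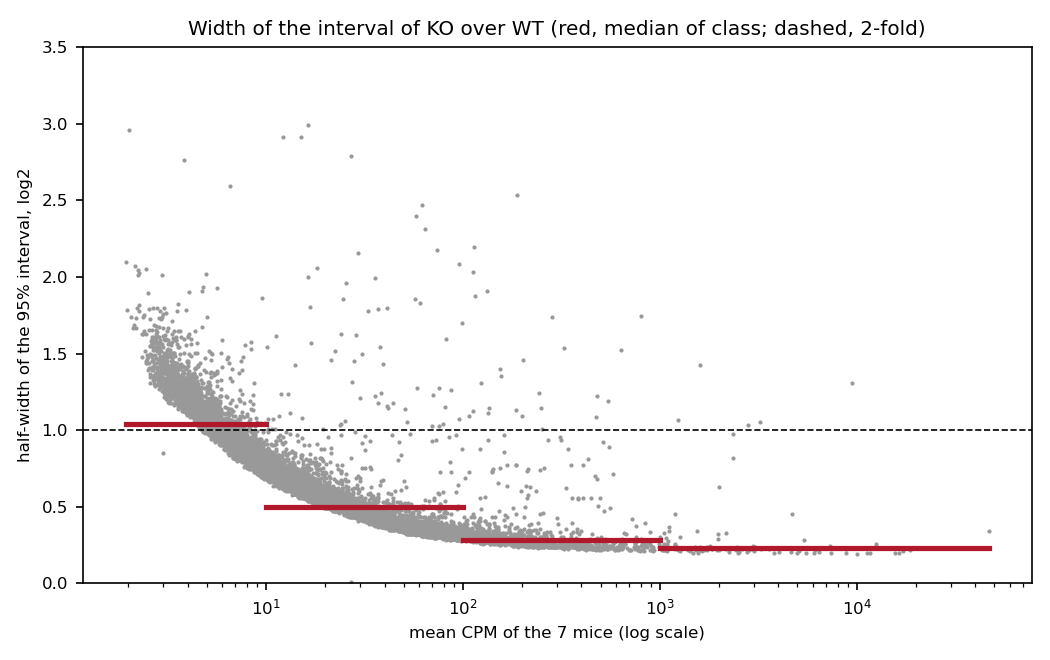
Half-width of the 95% interval of the log2 fold change of KO over WT (y axis) against the mean CPM of the 7 mice (x axis, log scale), 1 point per tested gene, with red bars at the median of each class and a dashed line at 2-fold. The median falls from 1.04 below 10 CPM to 0.23 above 1000 CPM; Gstm4, at the bottom, has a fold change near 0 from which no width can be read.

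The lane was then examined on its own. Across 30 mice of all 8 groups, lane 8 against lane 7 gave 1 gene of 11566 (0.00865%) at adjusted p below 0.05 and 682 (5.90%) at p below 0.05. That gene was Actc1, cardiac actin, which was higher on lane 8 by 2.89 (SE 0.45, edgeR adjusted p = 0.00177). Within the 4 KO mice, 0 of 10146 genes passed adjustment in the quasi-likelihood test of edgeR and 452 (4.45%) were at p below 0.05. The summed level of 10 heart markers followed the lane in the mice compared here: it was 0.324 and 0 CPM in KO replicates 1 and 2 on lane 7, 18.1 and 17.9 CPM in KO replicates 3 and 4 on lane 8, and 17.7, 18.7 and 17.6 CPM in the WT mice. In the whole series 15 mice on lane 7 had 0 to 6.46 CPM and 15 mice on lane 8 had 9.36 to 36.1 CPM. Left out of these ranges are KO HF fed replicate 1 on lane 7 with 70.3 CPM and KO HF fasted replicate 4 on lane 8 with 30423 CPM. What carried the heart markers along with the lane was not tested.

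**Figure D5:**
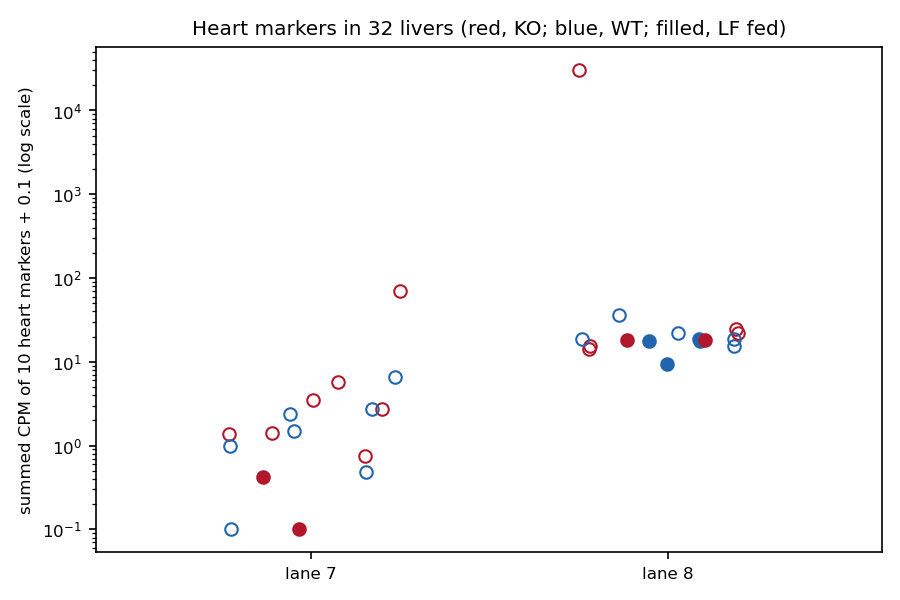
Summed CPM of 10 heart markers plus 0.1 (y axis, log scale) in the livers of all 32 mice by lane (x axis, points spread sideways), with KO in red, WT in blue and LF fed mice filled. Outside KO HF fed replicate 1, no lane 7 mouse exceeds 6.46 CPM, and no lane 8 mouse is below 9.36 CPM.

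The small differences were also read on lane 8 alone. Of the 275 genes higher in KO at p below 0.05, 272 could be fitted on lane 8 alone, all 272 were higher there too, and 119 were at p below 0.05. All 307 lower genes were lower on lane 8, 157 of them at p below 0.05. The 2 fits share 5 mice, all WT mice among them, so that the selection nearly fixes these directions and they bear on neither genotype nor lane. With WT replicate 2 included, 264 of 270 higher genes and 305 of 306 lower genes kept their direction. On lane 8 alone, or with lane as a term, 2 genes were called in each fit, Acadm and Mt1.

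Whether the genotype effect of LF fed mice differed from that of the other 3 conditions was tested over the same 30 mice, without WT LF fed replicate 2 and KO HF fasted replicate 4. No gene passed, 0 of 11566 (0%), with 488 (4.22%) at p below 0.05 and a smallest edgeR adjusted p of 0.841. With lane as a term the count was again 0, with 596 (5.15%) at p below 0.05 and a smallest adjusted p of 0.504. Without lane, the smallest adjusted p was that of Zc3h13 (log2 difference -1.28, edgeR adjusted p = 0.841). B3galt1 had a log2 difference of -2.66 between its LF fed KO to WT value and the mean of the other conditions (edgeR adjusted p = 0.932). Slc16a1 had a log2 difference of -0.86 (edgeR adjusted p = 0.997), and mt-Nd2 of -0.68 (edgeR adjusted p = 0.997). These genes were named for low levels in the same LF fed KO mice. A negative difference is thus nearly fixed by that choice and bears on nothing further. Acadm, the deleted gene, had a log2 difference of 0.94 (edgeR adjusted p = 0.932). For Slc16a1 the KO to WT values were 0.15 in LF fasted, -0.04 in HF fed and 0.10 in HF fasted mice, and for mt-Nd2 they were 0.31, 0.01 and 0.33. Among lists, the KO to WT medians of lipogenesis were 0.15 in LF fasted, -0.15 in HF fed and -0.40 in HF fasted mice, and those of the mitochondrially encoded transcripts were 0.06, 0.01 and 0.16. In each of the other conditions 1 gene (0.00865%) was called in the model with 8 groups.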

How the data were processed

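The authors sequenced liver RNA as QuantSeq 3′ single-read libraries. Per the labels and the submitters' processing notes, reads were mapped to GRCm38 with HISAT 0.1.5, handled with SAMtools 1.2 and counted per gene with HTSeq 0.6.1p1 in union mode. The deposited table holds raw counts without normalization for 20076 identifiers. 19913 have a symbol in GENCODE vM21, and the 163 others carry 0.125% of counts. The strand setting is not given in the sources used here, and the methods and the table name different Ensembl releases. No column was left out.

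Counts were tested with edgeR 4.0.16 in R 4.3.3 on the 7 mice (filterByExpr, TMM, robust quasi-likelihood F test, Benjamini-Hochberg over all genes tested). limma 3.58.1 voom and DESeq2 1.42.0 were alternatives, and the procedure was tested on simulated counts. Printed CPM use TMM factors over all 32 mice. Intervals use an SE read from the F statistic. Mice are separate animals. No replicates of the 7 mice agreed within sampling noise. Groups, lanes and ages come from the labels. The labels place 16 mice on each lane, which differs from the pools the methods describe.

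Members and gene lists were chosen with earlier results of these data known, so lists carry no test. Named are Acadm, every gene passing adjustment, the top 8 by p on each side (mean of 10 CPM or more, groups not overlapping), list members at p below 0.05 without overlap, the member with the highest level of a list, and others needed to describe a list. A few genes that meet this rule are not reported here. Promoter windows come from RefSeq.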

Additional observations from a re-analysis of the deposited data

Results flagged for a closer look

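Among 198 values tested within a group of 4 mice, 12 lay far from the rest of their group by Dixon's criterion, where chance alone gives about 1 in 20. Of these, 5 concern the omitted WT LF fed replicate 2 among the 4 WT mice, whose dividing-cell transcripts were not tested because they were the reason to leave it out. Its summed levels were 335 CPM for bile duct and gallbladder, 6.55 CPM for acinar pancreas, 207 CPM for adrenal cortex, 994 CPM for adipose tissue and 9.36 CPM for heart. The first was above, and the other 4 below, the range of the 3 WT mice used.

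In KO mice, Ado in replicate 3 (20.2 CPM), Crot in replicate 4 (315 CPM) and Gss in replicate 4 (22.9 CPM) were low for their group. Ganab in replicate 1 (241 CPM) and Srp68 in replicate 4 (67.0 CPM) were high. The mean log2 level of the TCA cycle in KO replicate 1 was -0.07 against the mean of the 7 mice, and that of the transcription regulators of lipid metabolism in KO replicate 4 was -0.19. Both were low for their group.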

How the results depend on the processing

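The 2 called genes became 1 with WT replicate 2, with limma voom and in both models of 8 groups, 39 without a filter on low counts (38 of them among the genes tested before), and 9 with a replicate block. Same-numbered KO and WT mice deviated with correlations of -0.0213, 0.00882 and 0.0778, so that the numbers give no pairing. With the block the list medians became 0.13 for acyl-CoA dehydrogenases, 0.03 for cysteine, taurine and sulfide, -0.11 for glucuronosyl- and sulfotransferases and 0.03 for metallothioneins and zinc transporters. Without the filter 572 genes were lower at p below 0.05. The share of genes within 2-fold was 56.2% with lane as a term, 57.7% on lane 8, 57.8% and 55.5% in the models of 8 groups without and with lane, 41.6% without a filter and 79.3% at a mean of at least 20 counts.

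With WT replicate 2, medians became 0.18 for acyl-CoA dehydrogenases, -0.23 for carnitine shuttle, -0.10 for fatty acid uptake, 0.22 for apolipoproteins, 0.25 for bile acids, 0.08 for glycolysis, -0.06 for pyruvate entry, 0.06 for TCA cycle, -0.02 for glutathione and NRF2 targets, 0.19 for glucuronosyl- and sulfotransferases, 0.36 for cytochromes P450, 0.11 for nuclear oxidative phosphorylation, -0.10 for mitochondrially encoded transcripts, 0.20 for coagulation and complement, 0.03 for lipid transcription regulators, 0.09 for autophagy and 0.07 for NAD(P)(H) reactions. The signs of Cyp3a11 (-0.17), Gss (-0.03), Hpx (-0.07) and Slco1b2 (0.03) turned. With lane as a term and on lane 8 alike, medians became 0.19 for acyl-CoA dehydrogenases, -0.12 for desaturases and elongases, -0.11 for pyruvate entry, 0.06 for TCA cycle and -0.04 for autophagy. With lane as a term that of ribosomal proteins became -0.08, and in the model of 8 groups with lane that of glycolysis became -0.12. The cause of these shifts was not tested.

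Leaving out 1 mouse at a time gave 1 to 7 called genes (7 without KO replicate 3, 5 without WT replicate 3, 1 without WT replicate 1 or 4), 170 to 328 higher and 179 to 343 lower genes at p below 0.05 (both lowest without WT replicate 4), and 55.0% to 65.8% within 2-fold. Medians ran from 0.00 to 0.14 for acyl-CoA dehydrogenases, -0.19 to 0.00 for peroxisomal beta-oxidation, -0.31 to -0.05 for lipid droplet and lipolysis, -0.10 to 0.14 for NAD synthesis, -0.16 to 0.01 for glycolysis, -0.23 to -0.09 for pyruvate entry, 0.01 to 0.13 for cysteine, -0.16 to 0.06 for glucuronosyl- and sulfotransferases, 0.03 to 0.18 for N-glycosylation, -0.10 to -0.02 for proteasome, -0.15 to 0.05 for metallothioneins, and also from -0.43 to -0.03 for cholesterol, 0.09 to 0.24 for P450, -0.34 to -0.14 for mitochondrially encoded transcripts, 0.18 to 0.42 for the ER, 0.12 to 0.30 for acute-phase proteins, 0.08 to 0.45 for heat shock and -0.86 to -0.50 for lipogenesis. In all, 955 values of list medians stayed and 52 moved, and of named genes 2238 stayed, 56 moved, 24 became stronger, 9 weaker and 4 reversed. Depth limits genes below 10 CPM, as described above. A Wald standard error, chosen after seeing the data, gave 2 called genes, and the share of genes with interval within 2-fold was 65.3%.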

Other observations

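Several liver gene groups not described above leaned little in either direction. Coagulation and complement genes had a median of 0.05, with 20 of 28 higher in KO, 0 at p below 0.05 and all 28 intervals within 2-fold. Cytosolic ribosomal proteins had a median of 0.03, and the proteasome one of -0.07, with 2 lower at p below 0.05. Among hepatokines, Fgf21, a fasting hormone, was at 7.45, 3.36, 5.93 and 17.2 CPM in KO and at 38.3, 11.9 and 22.5 CPM in WT, with overlap between the groups (log2 -1.48, SE 0.49, edgeR adjusted p = 0.787). Enho, which encodes adropin, was at 55.7, 29.4, 30.7 and 11.3 CPM in KO and at 10.3, 15.6 and 3.58 CPM in WT, again with overlap (log2 1.71, SE 0.64, edgeR adjusted p = 0.858). Neither passed adjustment. Fgf21 and Enho were chosen after their values were seen.

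Markers of macrophages summed to 753 to 850 CPM in KO and 647 to 865 CPM in WT, and those of sinusoidal endothelium to 478 to 575 CPM in KO and 536 to 593 CPM in WT. Skeletal muscle markers stood at 28.3 CPM in KO replicate 3, against 0.420 to 2.04 CPM in the 6 other mice.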
